A study of Homo sapiens with 8 samples.

Results

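The 10 genes described were listed as enzymes of androgen glucuronidation and conversion, though not each of them acts mainly on androgens. They are 5 UGT2B glucuronosyltransferases (UGT2B10, UGT2B11, UGT2B15, UGT2B17 and UGT2B28) and 5 genes named as steroid-converting enzymes (HSD17B4, HSD17B6, HSD17B11, SRD5A1 and SRD5A3). They were taken by symbol from a table of 27140 genes. All 10 were among the 15289 genes with enough counts to be tested, and each reached the count minimum in both libraries of every group, so none was kept through a single group. RNA was counted in 8 libraries of LNCaP, a human prostate adenocarcinoma line grown with fetal bovine serum. They form 4 groups of 2 libraries, and every line had been transduced with lentivirus and kept under puromycin at 1 µg/ml. The control line carried a control hairpin with a vector. The knockdown line carried a hairpin against METTL3, the enzyme that writes N6-methyladenosine on mRNA, with a vector. The wild-type rescue and the mutant rescue carried METTL3 hairpins with a METTL3 that resists it, either intact or catalytically dead, so that every line but the control held the METTL3 hairpin. Which promoters drove the constructs, whether a line came from single clones and whether the libraries of a line came from separate cultures were not given in the sources used here, so p-values measure only the spread between these libraries.

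Glucuronidation attaches a sugar acid to a steroid and makes it soluble enough to leave the cell. In prostate cells UGT2B15 and UGT2B17 inactivate testosterone, dihydrotestosterone and their reduced metabolites. The steroid reductases and hydroxysteroid dehydrogenases act before that step, and either make the more potent dihydrotestosterone or interconvert active and less active androgens.

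The libraries held 15200343 to 17893241 counts. METTL3 stood at 68.4 ± 0.0784 CPM (counts scaled to library size by TMM) in the control (SD, n = 2), 28.8 ± 3.64 after knockdown, 317 ± 10.8 with the wild-type rescue and 333.7 ± 0.632 with the mutant rescue, in the order the labels give. Prostate luminal markers defined the cells: 8 markers, among them KLK3, summed to 8109 to 8151 CPM in the control and to 6554 to 6857 CPM over the 6 libraries of the hairpin lines. The defining markers of other cell types were near 0, with 5 enterocyte markers summing to at most 0.553 CPM, 5 hepatocyte markers to at most 4.77 CPM and 4 basal markers to at most 4.34 CPM in any library. Among 4 fibroblast markers COL1A2 was at 0 counts in all libraries, and the sum of 78.5 to 80.3 CPM in the control and 82.3 to 104.8 CPM in the other lines was nearly all COL1A1. The part of the lower luminal sum in the results below was not tested, and in bulk RNA fewer cells of a kind and less RNA per cell cannot be told apart.

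UGT2B genes are close copies of each other, which bears on how reads can be assigned. The coding sequences of UGT2B15 and UGT2B17 in GENCODE transcripts differed at 55 of 1590 bases (96.5% identity), UGT2B11 and UGT2B28 were 97.0% identical, and UGT2B10 was 95% identical to UGT2B11. Between these clusters identity was lower, at 85.1% for UGT2B15 with UGT2B10. Of the stretches of 50 bases in the coding sequence, 36.2% in UGT2B15, 36.5% in UGT2B17, 38.8% in UGT2B10, 49.0% in UGT2B11 and 36.2% in UGT2B28 also occurred in a transcript of another gene. The length of the reads and the treatment of reads that fit several genes were not given in the sources used here, so the split of counts between the copies is uncertain and a sum over all UGT2B genes is given as well. The 60 coding bases where UGT2B15 and UGT2B17 differ most, bases 242 to 301 counted from the start codon, show how single substitutions separate these genes. Capitals in UGT2B17 mark the 9 bases that differ from UGT2B15.
UGT2B15: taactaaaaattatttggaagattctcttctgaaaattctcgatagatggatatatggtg
UGT2B17: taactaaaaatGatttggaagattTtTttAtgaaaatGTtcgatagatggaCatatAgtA

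The start regions are shown because the UGT2B genes rose together on knockdown, as described next. RefSeq (GRCh38.p14) gave a window for 7 of the 10 genes, and not for UGT2B17, UGT2B28 and HSD17B6. The 250 bases before the start lay at chr4:68670653-68670902 on the minus strand for UGT2B15, chr4:68815744-68815993 on the plus strand for UGT2B10 and chr4:69214749-69214998 on the minus strand for UGT2B11. Capitals mark the forkhead core TGTTTA, which reads TAAACA where it lies on the opposite strand, and the steroid receptor motif AGAACA.
UGT2B15: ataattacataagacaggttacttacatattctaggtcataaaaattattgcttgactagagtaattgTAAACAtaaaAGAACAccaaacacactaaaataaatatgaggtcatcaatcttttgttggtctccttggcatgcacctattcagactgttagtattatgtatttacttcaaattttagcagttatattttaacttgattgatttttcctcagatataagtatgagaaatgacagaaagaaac
UGT2B10: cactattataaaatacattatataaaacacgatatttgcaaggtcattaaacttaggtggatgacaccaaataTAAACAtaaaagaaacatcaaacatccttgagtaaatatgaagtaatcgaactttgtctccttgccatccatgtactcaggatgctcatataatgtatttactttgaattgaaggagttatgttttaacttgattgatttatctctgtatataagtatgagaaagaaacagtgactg
UGT2B11: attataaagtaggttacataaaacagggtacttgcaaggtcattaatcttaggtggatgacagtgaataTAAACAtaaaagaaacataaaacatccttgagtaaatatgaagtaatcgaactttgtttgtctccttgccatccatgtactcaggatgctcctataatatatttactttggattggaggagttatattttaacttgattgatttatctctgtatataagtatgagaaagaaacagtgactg

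These windows were 90.2% identical between UGT2B10 and UGT2B11, and 68.7% and 70.9% between UGT2B15 and each of these. All 3 held TGTTTA on the minus strand of the gene, starting 182, 177 and 181 bases before the start of UGT2B15, UGT2B10 and UGT2B11. Searched on both strands, TGTTTA occurred in 11% of the 35116 windows in the table, AGAACA, found in UGT2B15 only, in 12.4%, and the nuclear receptor motif AGGTCA, found in all 3, in 12.1%. The HNF1 motif GTTAAT, present in 6.23% of windows, was in none of the 7. HSD17B4, HSD17B11, SRD5A1 and SRD5A3 held none of these 4 motifs in their windows. Their windows were richer in G and C, at 52.8% to 70.8% against 28.4% to 31.2% in the UGT2B windows and a median of 58.0% over all. A match is a description of the letters and does not show a bound factor.

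The knockdown was first set beside the control, with METTL3 RNA at 28.8 CPM against 68.4 CPM. Here and in all comparisons below, differences between separately made lines cannot be told apart from those of the hairpin or construct. All 5 UGT2B genes rose, HSD17B4 and SRD5A3 also rose, and HSD17B6, HSD17B11 and SRD5A1 fell, so that 10 of 10 members were called by edgeR, where 48.0% of all tested genes were called in either direction (22.9% higher, 25.1% lower). The median log2 fold change was 1.64 over the 5 UGT2B genes and -0.26 over the other 5, and -0.01 over all tested genes. A gene was called at an adjusted p under 0.05, adjusted over all tested genes. The 10 genes were chosen with earlier results of these libraries known, so these counts are a description.

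UGT2B15, which glucuronidates dihydrotestosterone, changed most. Its level was 14.3 and 14.9 CPM in the control libraries, 79.0 and 73.1 after knockdown, 67.6 and 69.1 with the wild-type rescue and 32.1 and 31.8 with the mutant rescue. The 4 groups did not overlap: the control was lowest, the mutant rescue stood next, and the wild-type rescue lay just under the knockdown. On knockdown UGT2B15 rose 5.20-fold (log2 fold change 2.38, SE 0.06, edgeR adjusted p = 1.63e-76).

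UGT2B17, which acts on testosterone as well as dihydrotestosterone, had 22.9 and 21.5 CPM in the control, 68.2 and 69.96 after knockdown, 59.6 and 58.4 with the wild-type rescue and 36.5 and 41.0 with the mutant rescue. The order of the groups was that of UGT2B15, again without overlap, from a higher control level and with a smaller rise of 3.11-fold (log2 fold change 1.64, SE 0.06, edgeR adjusted p = 4.57e-59). Per kilobase of the deposited gene length UGT2B17 was the higher of the pair in the control, at 5.35 CPM per kb against 3.24 for UGT2B15, whereas in the knockdown they stood at 16.6 and 16.8. The deposited lengths of 4518 bases for UGT2B15 and 4148 for UGT2B17 exceed the GENCODE transcripts, both of 2077 bases. With those the levels were 10.7 CPM per kb for UGT2B17 and 7.05 for UGT2B15 in the control, and 33.2 and 36.6 in the knockdown.

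UGT2B10, known for conjugating tertiary amines such as nicotine rather than androgens, was a rare transcript with 22 and 20 counts in the control, 98 and 84 after knockdown, 88 and 99 with the wild-type rescue and 32 and 30 with the mutant rescue. It rose 4.09-fold on knockdown (log2 fold change 2.03, SE 0.23, edgeR adjusted p = 1.19e-14), and its knockdown and wild-type rescue libraries overlapped in CPM. UGT2B11 and UGT2B28, the latter active on several androgens, were as rare. UGT2B11 had 48 and 52 counts in the control, 107 and 83 after knockdown, 60 and 78 with the wild-type rescue and 29 and 33 with the mutant rescue. UGT2B28 had 20 and 18, 46 and 50, 32 and 39, and 11 and 14 counts in the same order. Unlike the other UGT2B genes, both were lowest in the mutant rescue, below the control. They rose on knockdown by 0.85 (SE 0.18) for UGT2B11 and 1.26 (SE 0.28) for UGT2B28 on the log2 scale.

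**Figure D1:**
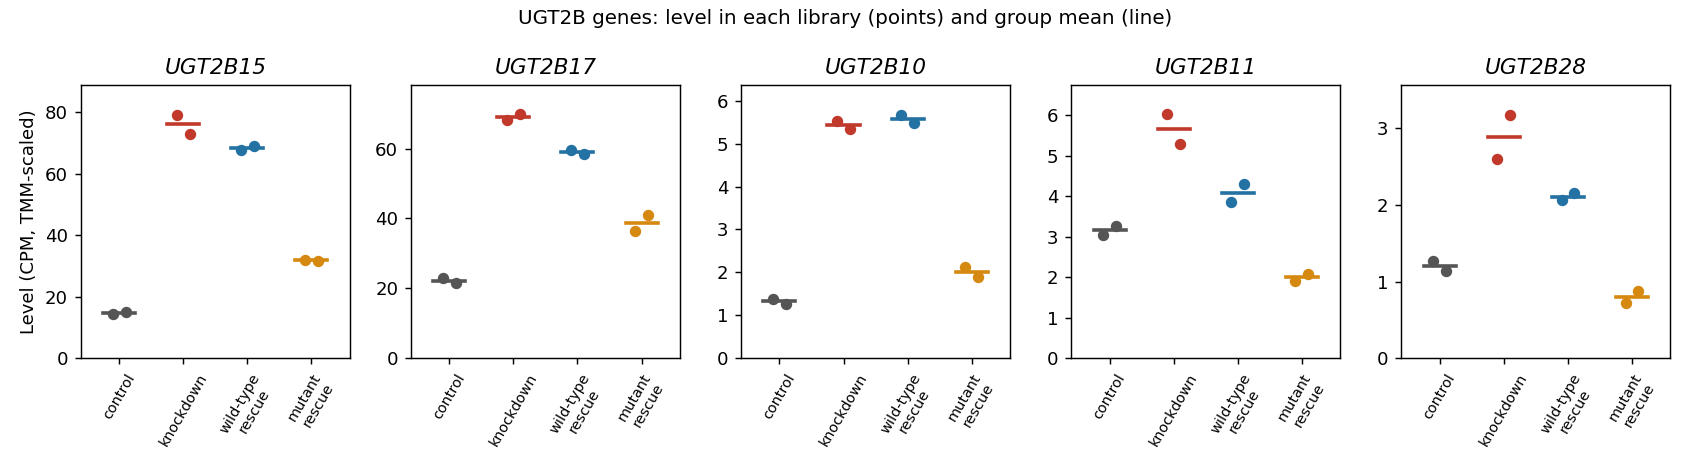
Level of each UGT2B gene in CPM (vertical axes, linear from 0, each gene on its own scale) in the 8 libraries; points are libraries and lines are the means of the 2 libraries. UGT2B15 goes from 14.6 CPM in the control to 76.1 in the knockdown and 31.9 in the mutant rescue, while UGT2B11 and UGT2B28 are lowest in the mutant rescue.

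The sum over all 7 UGT2B genes in the table does not depend on how counted reads were split between copies, though reads left uncounted could still affect it. It was 42.6 ± 0.67 CPM in the control, 159.6 ± 3.07 after knockdown, 139 ± 0.424 with the wild-type rescue and 75.7 ± 3.13 with the mutant rescue (SD, n = 2). The rise on knockdown was 3.75-fold (log2 fold change 1.91, SE 0.04, edgeR adjusted p = 1.11e-87). UGT2B4 and UGT2B7, the other UGT2B genes in the sum, had 0 to 6 counts in any library.

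The balance within the main pair also shifted. UGT2B15 made up 38.5% of the counts of UGT2B15 and UGT2B17 in control replicate 1 (95% Wilson interval 34.7% to 42.5%) and 40.9% in control replicate 2 (37.0% to 45.0%). In the knockdown the share was 53.7% (51.8% to 55.6%) and 51.1% (49.0% to 53.2%), and in the wild-type rescue 53.1% (50.9% to 55.3%) and 54.2% (52.1% to 56.2%). The mutant rescue stood between, at 46.8% (43.8% to 49.8%) and 43.7% (40.9% to 46.6%). The share in every knockdown and wild-type rescue library was above that in every control and mutant rescue library, though the nearest intervals of the knockdown and the mutant rescue touched. These intervals cover counting error only, and the counts carry no molecular identifiers.

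**Figure D2:**
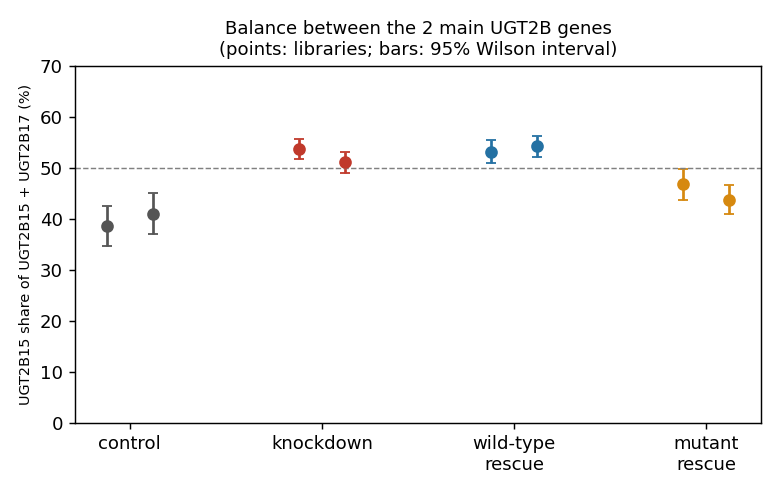
Share of UGT2B15 in the summed counts of UGT2B15 and UGT2B17 (vertical axis, percent, from 0) for each library; bars are 95% Wilson intervals and the dashed line marks equal counts. The control lies at 38.5% and 40.9%, the knockdown at 53.7% and 51.1%.

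Among the converting enzymes SRD5A3, a polyprenol reductase needed for N-glycosylation that is also named as a steroid reductase, rose most. It had 63.0 and 61.8 CPM in the control, 88.7 and 92.6 after knockdown, 88.1 and 85.9 with the wild-type rescue and 67.2 and 68.6 with the mutant rescue. The knockdown and the wild-type rescue were high and the mutant rescue lay near the control, nearer than for UGT2B15 and UGT2B17. The rise on knockdown was 1.45-fold (log2 fold change 0.54, SE 0.05, edgeR adjusted p = 1.30e-21).

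HSD17B4, a peroxisomal enzyme of fatty acid beta-oxidation that can oxidize estradiol, was the most abundant member per kilobase in every group (107 CPM per kb in the control). Its level was 317 and 314.5 CPM in the control, 388 and 380.2 after knockdown, 373 and 366 with the wild-type rescue and 321 and 324 with the mutant rescue. The order of the groups matched that of SRD5A3, at a smaller rise of 1.22-fold on knockdown (log2 fold change 0.28, SE 0.02, edgeR adjusted p = 1.58e-22).

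SRD5A1, the main steroid reductase of prostate cancer cells that makes dihydrotestosterone, moved the other way. It stood at 43.4 and 42.2 CPM in the control, 33.1 and 33.4 after knockdown, 34.4 and 31.4 with the wild-type rescue and 35.3 and 36.6 with the mutant rescue. All 6 libraries with the METTL3 hairpin were below both control libraries, and the fall on knockdown was 0.36 on the log2 scale (SE 0.06, edgeR adjusted p = 1.35e-07). SRD5A2, its paralog of the normal prostate, had 0 or 1 count in each library.

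HSD17B6, which can form dihydrotestosterone from androstanediol, was rare, with 97 and 84 counts in the control, 70 and 55 after knockdown, 57 and 67 with the wild-type rescue and 58 and 61 with the mutant rescue. In CPM the control libraries were above the other 6, and the log2 fold change on knockdown was -0.61 (SE 0.17, edgeR adjusted p = 0.00176). HSD17B11, a lipid droplet enzyme that oxidizes androstanediol, had 25.02 and 24.94 CPM in the control, 22.0 and 19.6 after knockdown, 22.8 and 21.3 with the wild-type rescue and 23.5 and 22.7 with the mutant rescue. Its fall on knockdown was small (-0.26, SE 0.08, edgeR adjusted p = 0.00387). Neither call held with DESeq2 (adjusted p = 0.0554 for HSD17B6 and 0.0708 for HSD17B11), and that of HSD17B6 ended without control replicate 1 (edgeR adjusted p = 0.0557) and that of HSD17B11 without knockdown replicate 2 (0.1145).

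**Figure D3:**
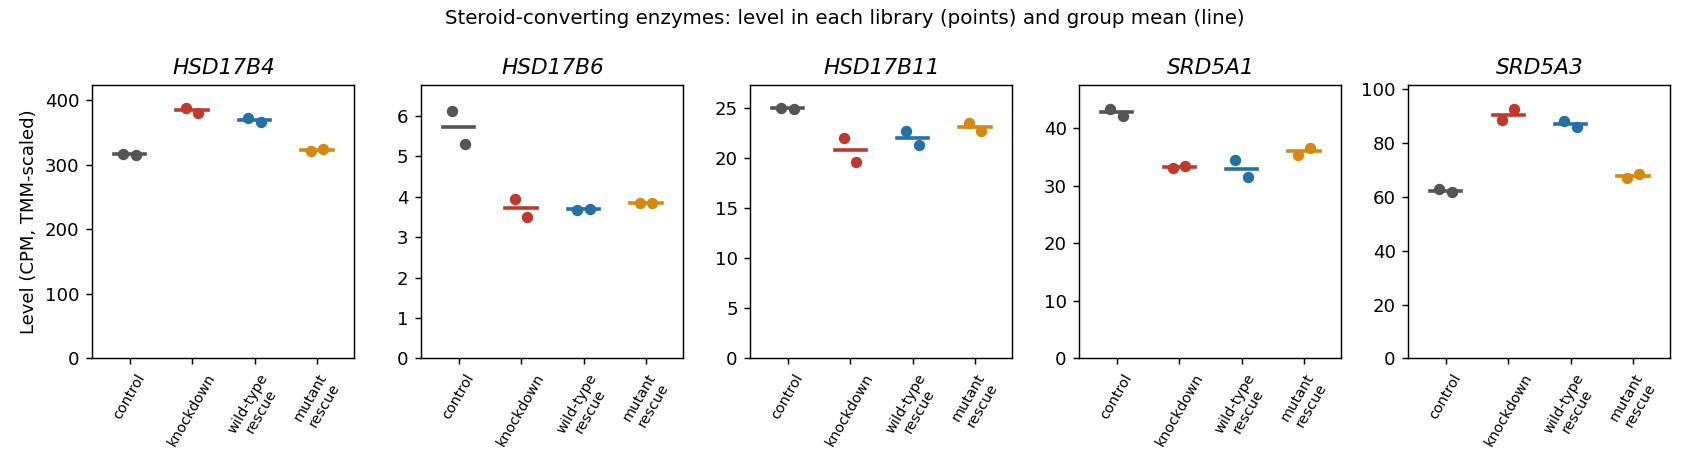
Level of each steroid-converting enzyme in CPM (vertical axes, linear from 0, each gene on its own scale) in the 8 libraries; points are libraries and lines are the means of the 2 libraries. SRD5A3 and HSD17B4 are high in the knockdown and the wild-type rescue, whereas SRD5A1 and HSD17B6 are highest in the control.

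The wild-type rescue was next set beside the knockdown; differences between separately made lines cannot be told apart from those of the construct. METTL3 rose, and 4 of 10 members were called lower and 0 higher, against 24.0% of all tested genes called in either direction (13.2% lower). The median size of the log2 fold change was 0.07 over the 10 members and 0.11 over all tested genes. Over the 5 UGT2B genes it was 0.23. The UGT2B sum stood at -0.20 (SE 0.03, edgeR adjusted p = 1.56e-06), and its call held in all 15 alternatives that test it. The log2 fold change was -0.16 (SE 0.04, edgeR adjusted p = 0.00463) for UGT2B15, -0.23 (SE 0.05, edgeR adjusted p = 5.71e-05) for UGT2B17, -0.47 (SE 0.17, edgeR adjusted p = 0.0316) for UGT2B11 and -0.06 (SE 0.02, edgeR adjusted p = 0.0484) for HSD17B4. UGT2B10 stood at 0.03 (SE 0.16), SRD5A1 at -0.02 (SE 0.06) and SRD5A3 at -0.06 (SE 0.04). UGT2B17 kept its call in every alternative but the minimum log2 fold change of 1, under which 0 members were called, whereas DESeq2 called no other member, giving adjusted p = 0.1175 for UGT2B15 and 0.133 for HSD17B4 and no adjusted p for UGT2B11. UGT2B15 lost its call without knockdown replicate 1 (edgeR adjusted p = 0.283, log2 fold change -0.10), UGT2B11 without that library (0.289) or without wild-type rescue replicate 1 (0.165) or 2 (0.0609), and HSD17B4 with only both groups fitted (0.0618) and without that knockdown library (0.339), wild-type rescue replicate 2 (0.3004), mutant rescue replicate 2 (0.0571) or either control library (0.0677 and 0.0671).

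Against the control, the wild-type rescue stayed far from the starting level. 9 of 10 members were called, 6 higher and 3 lower, where 49.3% of all tested genes were called (23.8% higher, 25.5% lower). UGT2B15 was 4.67-fold higher (log2 fold change 2.22, SE 0.07), UGT2B10 4.18-fold (2.06, SE 0.22) and UGT2B17 2.66-fold (1.41, SE 0.06). UGT2B28 was higher by 0.81 (SE 0.30) and UGT2B11 was not called (0.38, SE 0.20, edgeR adjusted p = 0.100). SRD5A3 was higher by 0.48 (SE 0.05) and HSD17B4 by 0.23 (SE 0.02), while HSD17B6 was lower (-0.63, SE 0.17), as were SRD5A1 (-0.38, SE 0.06) and HSD17B11 (-0.18, SE 0.08). The call of UGT2B28 ended with DESeq2 (adjusted p = 0.1265) and without control replicate 1 (edgeR adjusted p = 0.0562), control replicate 2 (0.111) or wild-type rescue replicate 2 (0.0787), and that of HSD17B11 ended with DESeq2 (0.228), with no filter (0.0594), at 10 CPM or more (0.0529), with only both groups fitted (0.0525) and without the same libraries (0.130, 0.123 and 0.282).

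The mutant rescue was set beside the knockdown in the same way. Here all 5 UGT2B genes fell together with HSD17B4 and SRD5A3, 7 of 10 members called lower and 0 higher, against 51.7% of all tested genes called in either direction (25.8% lower). The largest falls were in UGT2B28 (-1.82, SE 0.31), UGT2B11 (-1.501, SE 0.20) and UGT2B10 (-1.44, SE 0.21), followed by UGT2B15 (-1.25, SE 0.05, edgeR adjusted p = 2.03e-50) and UGT2B17 (-0.83, SE 0.05). SRD5A3 fell by 0.42 (SE 0.05) and HSD17B4 by 0.25 (SE 0.02). HSD17B6 (0.04, SE 0.19), HSD17B11 (0.15, SE 0.08) and SRD5A1 (0.12, SE 0.06) were not called, though HSD17B11 was called without knockdown replicate 1 (0.24, edgeR adjusted p = 0.0492). This comparison, the wild-type rescue against the knockdown and the knockdown against the control share the knockdown libraries.

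The mutant rescue was then set beside the wild-type rescue, from which it differs by design in the catalytic activity of the introduced METTL3. Differences between these separately made lines cannot be told apart from those of the construct. The same 7 genes were lower in the mutant rescue, where 41.3% of all tested genes were called (21.0% higher, 20.3% lower). UGT2B15 was 2.14-fold lower (log2 fold change -1.10, SE 0.05, edgeR adjusted p = 2.00e-42), UGT2B17 1.52-fold (-0.60, SE 0.05), UGT2B10 2.78-fold (-1.47, SE 0.21), UGT2B11 2.05-fold (-1.03, SE 0.22) and UGT2B28 2.60-fold (-1.38, SE 0.33). The UGT2B sum was lower by 0.88 on the log2 scale (SE 0.04, edgeR adjusted p = 8.25e-48). SRD5A3 (-0.36, SE 0.05) and HSD17B4 (-0.19, SE 0.02) were also lower. SRD5A1 was at 0.13 (SE 0.06, edgeR adjusted p = 0.0887), a difference called only without wild-type rescue replicate 1 (0.19, adjusted p = 0.0402), and HSD17B6 (0.06, SE 0.19) and HSD17B11 (0.07, SE 0.08) were not called. By edgeR no call was lost in any library left out, and DESeq2 gave UGT2B28 no adjusted p. This comparison shares no library with that of the knockdown and the control.

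Against the control, the mutant rescue split the UGT2B genes. UGT2B15 was 2.18-fold higher (1.13, SE 0.08, edgeR adjusted p = 6.58e-29) and UGT2B17 1.75-fold higher (0.81, SE 0.07), UGT2B11 was lower (-0.66, SE 0.24, edgeR adjusted p = 0.0121), and UGT2B10 (0.59, SE 0.29, edgeR adjusted p = 0.0683) and UGT2B28 (-0.57, SE 0.38, edgeR adjusted p = 0.194) were not called. HSD17B4 (0.03, SE 0.02) and HSD17B11 (-0.11, SE 0.08) were not called, SRD5A3 was higher by 0.12 (SE 0.05), and HSD17B6 (-0.57, SE 0.18) and SRD5A1 (-0.25, SE 0.06) were lower. In all 6 of 10 members were called, 3 higher and 3 lower, close to the 58.8% of all tested genes (29.1% higher, 29.7% lower). DESeq2 called 3 members, UGT2B15, UGT2B17 and SRD5A1, and gave adjusted p = 0.0789 for UGT2B11, 0.0626 for HSD17B6 and 0.103 for SRD5A3. The share of all genes called by DESeq2 is not set beside this count, which shows only how the calls depend on the test. Without 1 library edgeR lost UGT2B11 (control replicate 2, adjusted p = 0.0751; mutant rescue replicate 1, 0.0732), HSD17B6 (control replicate 1, 0.0690) and SRD5A3 (control replicate 1, 0.0535; control replicate 2, 0.124; mutant rescue replicate 2, 0.129).

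**Figure D4:**
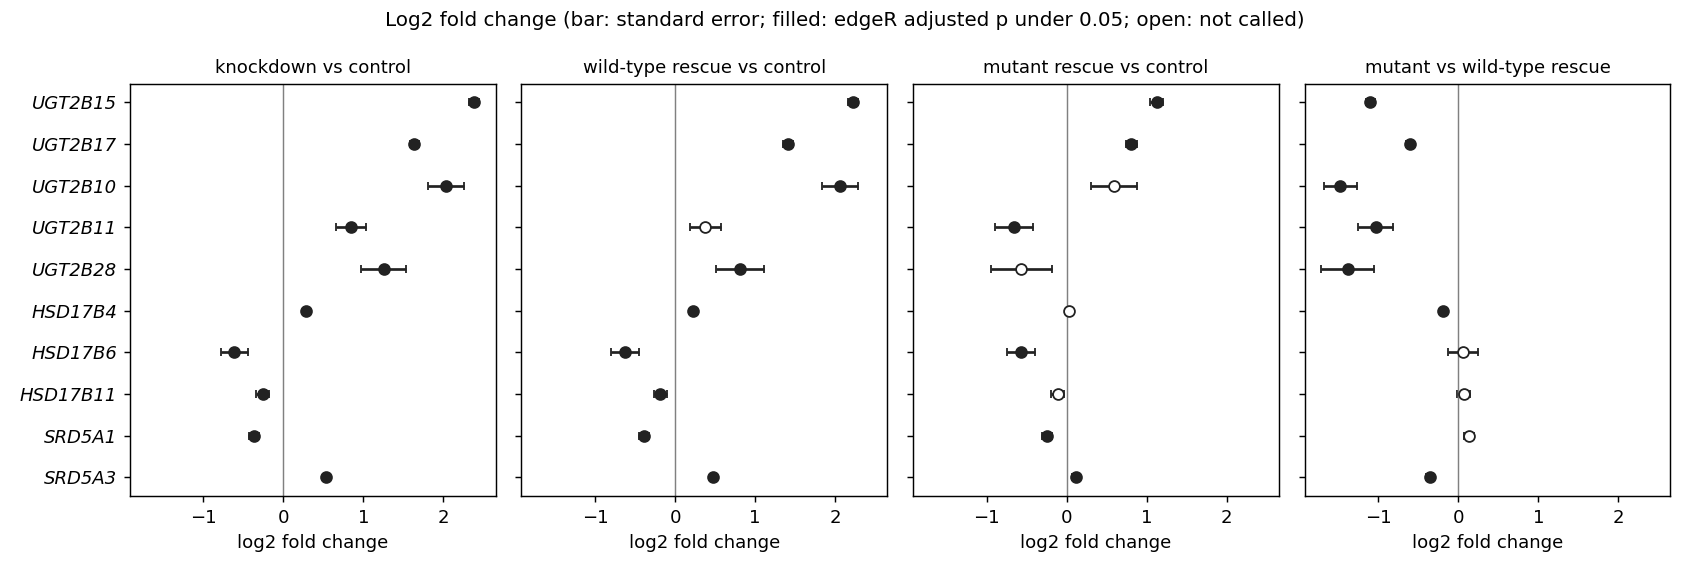
Log2 fold change (horizontal axes) of the 10 members in 4 comparisons; bars are standard errors, filled points were called by edgeR and open points were not. The UGT2B genes lie to the right of 0 in the knockdown and to the left where both rescues are compared, while SRD5A1 and HSD17B6 are below the control in all 3 hairpin lines.

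Over the 8 libraries the members fell into patterns. As a description, the correlation of log2 CPM was 0.992 between UGT2B15 and UGT2B17, 0.958 between UGT2B11 and UGT2B28, and 0.616 between UGT2B15 and UGT2B11. HSD17B4 and SRD5A3 correlated at 0.984 with each other and at 0.935 and 0.963 with UGT2B15, and SRD5A1 at -0.953 with UGT2B15. These 8 points fall into 4 lines, and near-identical copies can share reads. Among 321 other genes averaging 5 CPM or more and with a range of at least 1 between group means (log2), the 5 most like UGT2B15 were the mannosidase MAN1A1 (r = 0.997), the adaptor GRB10 (0.997), the endomannosidase MANEA (0.996), the transmembrane protein TMEFF2 (0.995) and the ephrin receptor EPHA7 (0.993), by Pearson correlation over the 8 libraries. MAN1A1 went from 29.4 CPM in the control to 83.7 after knockdown, 75.1 with the wild-type rescue and 49.1 with the mutant rescue.

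The UGT2B genes lie in 1 cluster on chromosome 4, and several of their neighbours moved too. Gene order was taken from RefSeq, and these neighbours were chosen after their values were seen. TMPRSS11E, a transmembrane serine protease gene that is the next protein-coding gene beside UGT2B17, had 3.48 and 4.09 CPM in the control, 15.1 and 14.7 after knockdown, 13.3 and 15.8 with the wild-type rescue and 11.2 and 12.2 with the mutant rescue. All 6 hairpin libraries were above the control, and TMPRSS11E rose by 1.98 on knockdown (SE 0.14, edgeR adjusted p = 6.61e-29). In the mutant rescue it was higher than in the control by 1.63 (SE 0.15), beside 0.81 for UGT2B17; the difference between these genes was not tested. Between the rescues it stood at -0.32 (SE 0.11, edgeR adjusted p = 0.00928), which was no longer called with DESeq2 (adjusted p = 0.122) and without wild-type rescue replicate 2 (edgeR adjusted p = 0.2925) or mutant rescue replicate 1 (0.117).

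Of 20 protein-coding neighbours, 10 on each side, 7 had enough counts to be tested. On knockdown 6 of these were called higher, where 22.9% of all tested genes were called higher. TMPRSS11D had 1 and 2 counts in the control, 41 and 29 after knockdown, 30 and 34 with the wild-type rescue and 14 and 19 with the mutant rescue, and TMPRSS11F 1 and 1, 18 and 11, 16 and 26, and 5 and 4. Both reached the count minimum only through the lines in which they are high, so the share of 6 in 7 is no support for the cluster as a whole. ODAM, which encodes an enamel-associated protein, had 30 and 28 counts in the control, 99 and 117 after knockdown, 105 and 107 with the wild-type rescue and 61 and 68 with the mutant rescue (log2 fold change on knockdown 1.82, SE 0.20). YTHDC1, a nuclear reader of methylated adenosine that lies between the TMPRSS11 genes and TMPRSS11E, was lower by 0.18 on knockdown (log2 fold change -0.18, SE 0.04, edgeR adjusted p = 5.42e-05). CENPC (0.26, SE 0.09) and UBA6 (0.11, SE 0.03), at the far end, rose slightly. UGT2A3, UGT2B4 and UGT2B7 inside the cluster were untested, with 0 to 6 counts a library.

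**Figure D5:**
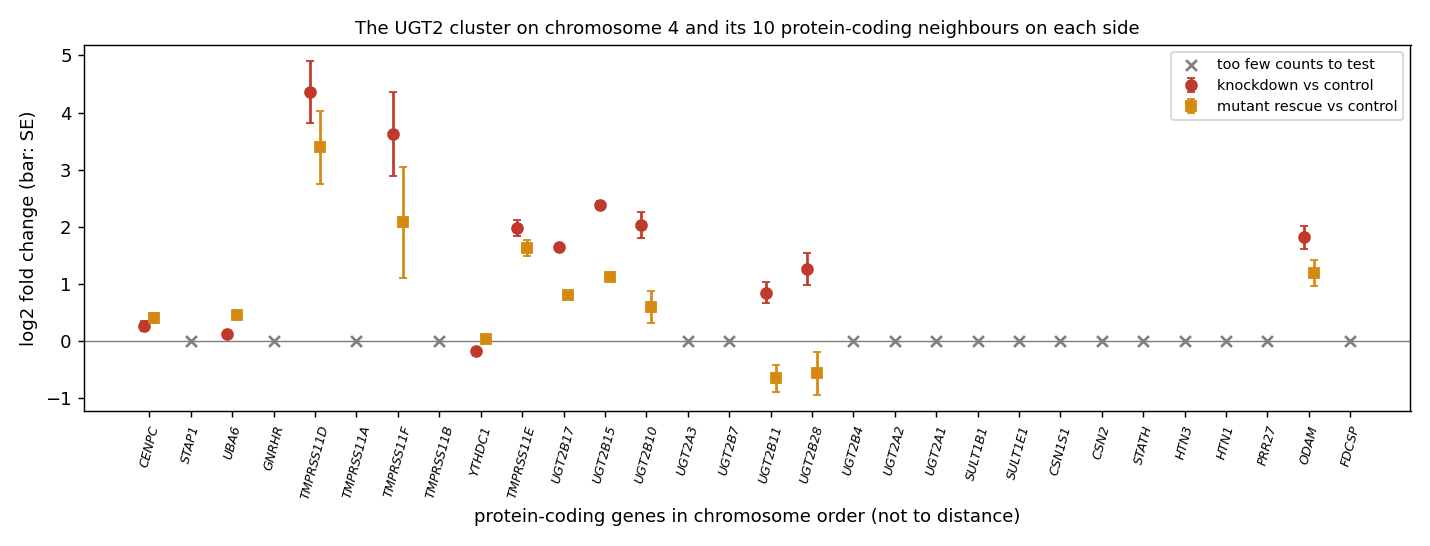
Log2 fold change against the control (vertical axis, bars are standard errors) of the UGT2 cluster on chromosome 4 and 10 protein-coding genes on each side, in gene order and not to distance; circles are the knockdown, squares the mutant rescue, and crosses genes with too few counts. TMPRSS11E and ODAM are above 0 in both, and the values of TMPRSS11D and TMPRSS11F, with 1 or 2 counts in a control library, depend on the offset that edgeR adds to counts.

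Few other glucuronosyltransferases were present. Of 17 others listed, 2 had enough counts to be tested. UGT8, which makes galactosylceramide and does not conjugate androgens, rose by 0.26 on knockdown (edgeR adjusted p = 0.00951) and was lower by 0.26 in the mutant than in the wild-type rescue (log2 fold change -0.26, edgeR adjusted p = 0.0124). UGT1A1, which conjugates bilirubin, had 4 counts in each knockdown library and 11 and 19 in the mutant rescue, and was called higher in the mutant than in the wild-type rescue (1.20, edgeR adjusted p = 0.0344). With 5 and 9 counts in the wild-type rescue and 9 and 10 in the control, UGT1A1 reached the count minimum only through the mutant rescue, where it is high, so this call is no support for a change. UGT1A genes share most of their transcript, so low counts for a single one of them do not show that the locus is silent.

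Genes that supply the sugar acid, carry glucuronides or cleave them changed in both directions. Of 12 tested genes of this list, 2 rose and 5 fell on knockdown, with a median log2 fold change of -0.04, where 48.0% of all tested genes were called and their median was -0.01. UGDH, which makes UDP-glucuronic acid, fell by 0.42 on knockdown (edgeR adjusted p = 3.79e-16) and was higher by 0.41 in the mutant than in the wild-type rescue (edgeR adjusted p = 1.39e-14), the reverse of UGT2B15 in both. ABCC4, a transporter that exports glucuronides, fell by 0.76 on knockdown, and SLC35D2, a nucleotide sugar transporter, rose by 0.40. GUSB, which cleaves glucuronides, was higher by 0.15 in the mutant than in the wild-type rescue, where 2 genes of the list were higher, 2 lower and 8 not called.

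Of 22 other steroid-converting enzymes tested, 3 rose and 5 fell on knockdown and 14 were not called, where 48.0% of all tested genes were called. The median size of their log2 fold change was 0.24, against 0.19 over all tested genes. Between the rescues 3 were higher and 6 lower in the mutant, where 41.3% of all tested genes were called. HSD11B2, which inactivates cortisol, fell by 0.58 on knockdown and was higher by 0.42 in the mutant than in the wild-type rescue (edgeR adjusted p = 1.85e-23 and 2.33e-15). SULT2B1, a steroid sulfotransferase, fell by 0.65 on knockdown, and STS, which removes sulfate from steroids, was lower by 0.44 in the mutant than in the wild-type rescue (log2 fold change -0.44, edgeR adjusted p = 0.00181). HSD3B1 had 1 to 8 counts a library and CYP17A1 1 to 6, and neither could be tested.

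Of the 4 listed androgen-responsive genes with the largest change on knockdown, 3 fell, while the UGT2B genes rose, and FGFR2 was at 0.43 and not called. KLK2, an androgen-induced protease, fell by 0.94 on knockdown (edgeR adjusted p = 1.50e-78) and was lower by 0.26 in the mutant than in the wild-type rescue (log2 fold change -0.26, edgeR adjusted p = 3.41e-15). The gene of prostate-specific antigen, KLK3, fell by 0.50 and the prostate transporter gene SLC45A3 by 0.37 on knockdown. STEAP4, a metalloreductase, was at -0.21 on knockdown, which was not called (edgeR adjusted p = 0.194), and at -0.51 between the rescues (edgeR adjusted p = 0.00913). Other listed genes were higher in the mutant than in the wild-type rescue, by 0.21 for TMPRSS2, 0.21 for FKBP5, 0.15 for HOXB13 and 0.05 for KLK3, so this group moved in both directions between the rescues.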

How the data were processed

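Libraries were made from TRIzol-extracted total RNA with a stranded mRNA kit, per the labels' protocols. Raw counts for each gene were deposited by the authors; CASAVA, STAR 2.5.2b, featureCounts, DESeq2 and hg19 are named in the submitters' processing notes, without parameters. The deposited column of other kind is the gene length in bases.

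The tests used edgeR 4.0.16 (R 4.3.3): filterByExpr by group (minimum count 10, total 15; 15289 of 27140 genes kept), TMM, and a robust quasi-likelihood fit with 1 mean per group over all 8 libraries, tested two-sided in 6 comparisons with Benjamini-Hochberg adjustment over all tested genes at 0.05. The SE of a log2 fold change is its size over the root of F. An exact permutation test cannot reach 0.05 with 2 libraries a group. All UGT2B rows were also replaced by their sum. Libraries of a group differed by more than sampling noise (chi-square per degree of freedom 1.22 to 1.37). The spread beyond sampling noise was small, with a common coefficient of variation of 1.40% in edgeR. The p-values rest on that spread, and the sources used here do not say whether it includes separate cultures. Totals of 15200343 to 17893241 counts set the depth.

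The members and lists were chosen with earlier results of these data known. All members are described; of each list, genes come from the 4 largest changes on knockdown and the 4 largest between the rescues. Alternatives were DESeq2 1.42.0 size factors or its Wald test, no filter, a mean of at least 10 CPM, only the groups compared, a minimum log2 fold change of 1, the replicate block, the length trend removed (lowess, span 0.3) and each library left out. The steps were tested on simulated data. Sequences come from RefSeq (GRCh38.p14) and GENCODE transcripts; no coordinates of the deposited build were used. The counts of the list of androgen-responsive genes are not reported here.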

Additional observations from a re-analysis of the deposited data

How the results depend on the processing

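The sum of the UGT2B genes kept its direction and its call in all 6 comparisons under all 15 alternatives that test it, with log2 fold changes of 1.89 to 1.93 on knockdown and -0.92 to -0.84 between the rescues. For single members, 832 of 876 values kept direction and, where an adjusted p was given, side of the threshold. Values for which DESeq2 gave no adjusted p count among the 832 by direction alone. Of the others, 37 lost the call, 2 gained it and 5 changed sign, and none of these 5 had been called. They are HSD17B6 in the mutant rescue against the knockdown (-0.01978 with the length trend removed, -0.04045 to 0.135 with libraries left out, the lowest without knockdown replicate 2) and, in the wild-type rescue against the knockdown, HSD17B6 (-0.09764 to 0.07777, the highest without knockdown replicate 1), HSD17B11 (-0.000189 to 0.1681, the lowest without knockdown replicate 2) and SRD5A1 (-0.07887 to 0.04987, the highest without wild-type rescue replicate 2). In that comparison the neighbours TMPRSS11E (-0.1611 to 0.07979, positive without wild-type rescue replicate 1) and ODAM (-0.2359 to 0.1768, positive without knockdown replicate 2 or wild-type rescue replicate 2) also changed sign, alternatives added after seeing the data.

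With a mean of at least 10 CPM only 6 members remain, and fewer could be called. Called were 6 on knockdown and 4 in the mutant rescue against the knockdown. Between the rescues 4 were called, and 5 in the wild-type rescue against the control. Counts of all genes called at that filter are not set beside these, so they show only how the calls depend on the filter. With a minimum log2 fold change of 1 there were 4 members (514 of all genes, against 7337) on knockdown, 0 (35, against 3673) in the wild-type rescue against the knockdown, 4 (380, against 7909) in the mutant rescue against the knockdown, 4 (185, against 6307) between the rescues, 3 (491, against 7531) in the wild-type and 1 (837, against 8993) in the mutant rescue against the control; this rule asks for more by construction. DESeq2 called 1 member (1908 genes) in the wild-type rescue against the knockdown, 4011 genes between the rescues, and 3 members in the mutant rescue against the control. For the mutant rescue against the control, the count of all genes called by DESeq2 is not set beside the 3 members. The cause of these differences from edgeR was not tested. With each library left out in turn, 1 to 4 members were called in the wild-type rescue against the knockdown, beside 2473 to 3680 of all genes.

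Replicate numbers did not pair the libraries: the differences between replicates correlated at -0.0457 to 0.0384 between groups. With the replicate block 10 members were called on knockdown, 3 in the wild-type rescue against the knockdown (HSD17B4 lost, edgeR adjusted p = 0.0524), 7 in the mutant rescue against the knockdown, 7 between the rescues, 9 in the wild-type and 6 in the mutant rescue against the control. Counts of all genes called with the block are not set beside these, so they show only how the calls depend on the block. UGT2B10, UGT2B11, UGT2B28 and HSD17B6, at under 110 counts a library, have standard errors of 0.16 to 0.38 and could hide changes of that size.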

Other observations

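HSD17B4 acts in peroxisomal beta-oxidation, and of 10 genes of that pathway 3 rose, 1 fell and 6 were not called on knockdown, where 48.0% of all tested genes were called, and 5 were lower and 1 higher in the mutant than in the wild-type rescue, where 20.3% and 21.0% of all tested genes were called. EHHADH, the other bifunctional enzyme of the pathway, stood at 10.03 CPM in the control, 8.42 after knockdown, 6.97 with the wild-type rescue and 3.13 with the mutant rescue (mutant against wild-type rescue, log2 fold change -1.14, edgeR adjusted p = 6.75e-09), and the bile acid oxidase ACOX2 was lower by 0.74 (-0.74, edgeR adjusted p = 7.51e-04). On knockdown AMACR, a racemase of branched-chain fatty acids that is raised in prostate cancer, rose by 0.54 and ABCD3, a peroxisomal transporter, by 0.37.

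SRD5A3 works in the making of dolichol, the lipid carrier of N-glycans. Of 10 genes of dolichol and N-glycan synthesis, 3 fell and 0 rose on knockdown, near the 25.1% of all tested genes called lower. Between the rescues 6 were lower in the mutant and 1 higher, where 20.3% and 21.0% of all tested genes were called, with the mannosyltransferase ALG1 at -0.68 (edgeR adjusted p = 7.81e-07) and the glucosyltransferases ALG5 at -0.36 and ALG6 at -0.31, beside SRD5A3 at -0.36.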
